A study of Mus musculus with 6 samples.

Results

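Gamma-delta intraepithelial T cells were sought among all droplet barcodes of 6 small intestinal libraries. A barcode was taken as a gamma-delta barcode when it held at least 1000 unique molecular identifiers (UMIs, 1 per captured RNA molecule), at most 25% of them from mitochondrially encoded (mt-) RNAs, at least 2 UMIs summed over Cd3d, Cd3e and Cd3g, at least 1 Trdc UMI, and no UMI of Cd4 or Vil1. The members were thus chosen by these measured RNAs, whose levels describe the choice. Trdc, Cd3d, Cd3e, Cd3g, Cd4 and Vil1 were left out of the tests, while the 13 mt- RNAs, limited only in their sum, stayed in the fits and in the counts of calls. The rule found 1635 barcodes of 60706 in all, and 1178 further barcodes passed the same conditions without a Trdc UMI and served as the comparison population. The study sequenced the small intestinal epithelium of 3 IE-HuR-/- mice and 3 control littermates, as 1 library per animal. IE-HuR-/- mice are HuR fl/fl animals that carry a Cre driven by the villin promoter, which is active in intestinal epithelium, and the controls were HuR fl/fl littermates without Cre, which the labels call wild-type. All were C57BL/6 mice of 6 to 8 weeks, age- and gender-matched, and had, by the study's methods, been without food for 24 h (the labels give normal feeding). By the study's methods, the tissue was incubated with EDTA and the pellet was then dissociated with TrypLE. Purity was examined by flow cytometry as cells with EPCAM, an epithelial surface protein, and without the surface proteins CD45 and CD90 (Thy1). T cells were thus not the population sought.

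Gamma-delta T cells carry a receptor made of a gamma and a delta chain in complex with the CD3 proteins, in place of the alpha and beta chains of most T cells. In the small intestine they sit between the epithelial cells, held there in part by the integrin alpha E (Itgae) that binds E-cadherin, and many carry CD8 as an alpha-alpha pair without the beta chain. They are known as resident cytotoxic cells that store granzymes and that lack several surface proteins of conventional alpha-beta T cells, such as CD5 and CD8 beta. The delta constant gene Trdc, on which the rule rests, lies at chr14:54142851-54148868 (GRCm38, plus strand), inside the alpha chain locus and upstream of the alpha constant gene Trac at chr14:54220521-54224206.

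The gamma chain has 4 constant genes on chromosome 13 whose RNAs carry much of the result below. The first 60 bases of their first exons (GENCODE M21 transcripts, GRCm38) are shown because they tell how alike the copies are in that stretch. Whether the reads cover it was not examined. Capitals mark the 12 positions at which the 4 copies are not all the same.
Tcrg-C1: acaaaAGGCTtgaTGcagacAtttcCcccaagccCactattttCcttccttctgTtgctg
Tcrg-C2: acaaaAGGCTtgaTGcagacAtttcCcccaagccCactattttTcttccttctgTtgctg
Tcrg-C3: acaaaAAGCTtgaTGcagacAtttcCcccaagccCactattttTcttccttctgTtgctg
Tcrg-C4: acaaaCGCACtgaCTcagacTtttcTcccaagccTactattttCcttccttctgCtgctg
The stretches lie at chr13:19214103-19214162 (Tcrg-C1, plus strand), chr13:19307492-19307551 (Tcrg-C2, minus strand), chr13:19260885-19260944 (Tcrg-C3, plus strand) and chr13:19344558-19344617 (Tcrg-C4, plus strand). Over the 330 bases of the first exon, Tcrg-C2 shared 97.3% and Tcrg-C3 96.1% of its bases with Tcrg-C1, and Tcrg-C4 shared 82.1%. How the authors' counting treated reads that match several copies is not given in the sources used here, so the division of UMIs between Tcrg-C1 and Tcrg-C2 is uncertain.

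The gamma-delta barcodes were spread evenly over the libraries. There were 263, 279 and 259 in the control libraries and 275, 260 and 299 under the IE-HuR-/- label. Beside them stood 131 to 182 and 231 to 239 Trdc-negative barcodes. No member barcode sequence occurred in more than 1 library, although 22 to 44 barcodes of all kinds were shared by each pair of libraries. The median member held 4781 UMIs and the highest 25111, and their summed counts ran from 1119041 to 1599501 UMIs per library. Libraries had between 59518012 and 91818560 UMIs over all barcodes. Of 35259 barcodes that passed the UMI and mt- limits, 7066 met the CD3 condition and 3891 of these held Trdc. Of the 3891, 2249 carried at least 1 Vil1 UMI, whereas 14 carried Cd4.

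Trdc was detected with a median of 5 UMIs per member, and 188 of the 1635 members had a single Trdc UMI. In the median member, 27 UMIs came from the 3 CD3 genes. The rule rested on few molecules for some barcodes, and Trdc UMIs were also found outside T cells. Of Vil1-positive CD3-negative barcodes, 1.018% to 2.66% per library held a Trdc UMI at a median depth of 3745.5 to 6215 UMIs. B cell barcodes (at least 2 Cd79a UMIs, no CD3) numbered only 23 to 44 per library, at a median depth of 3295 to 4398 UMIs. Of them, 3.23% held a Trdc UMI in control replicate 1 and 0% in every other library. Among CD3-positive barcodes free of Vil1 and Cd4 the share with a Trdc UMI was 52.1% to 66.4%. The barcodes next to the thresholds were as follows. Members with 1 Trdc UMI had 631 CPM (counts per 1e6 UMIs) of Tcrg-C1 and 5.66 CPM of Cd5, whereas the barcodes without Trdc had 205 and 48.9 CPM. The 27 members with 2 CD3 UMIs had 297 CPM of Tcrg-C1 and 573 CPM of Cd8a, and 50 barcodes with 1 CD3 UMI that the rule left out had 231 and 515 CPM. The 1246 barcodes left out for 1 Vil1 UMI had 1045 CPM of Tcrg-C1, 1277 CPM of Cd8a and 0.951 CPM of Cd5.

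Markers of intraepithelial T cells that the rule did not use were present. Cd8a, the CD8 alpha chain, had 1299 ± 132 CPM (SD, n = 6 libraries) and was found in 1435 of 1635 members. Itgae had 702 ± 46.1 CPM and was found in 1500 members. They were at 3.40 and 3.07 CPM in Vil1-positive CD3-negative barcodes, but at 1192 ± 67.6 and 619 ± 85.3 CPM in Trdc-negative T cell barcodes, so they mark both CD3-positive populations. Cd8b1, the CD8 beta chain, had 16.2 ± 12.8 CPM and was found in 63 members, and Cd5 was found in 6. RNAs of the alpha-beta receptor were nevertheless present. Trac, Trbc1 or Trbc2 UMIs were found in 1563 members, with 317 ± 31.5 CPM of Trac, 513 ± 50.8 CPM of Trbc1 and 903 ± 64.7 CPM of Trbc2, where epithelial barcodes had 2.59, 1.83 and 2.5 CPM. Neither receptor proteins nor rearranged receptor sequences were measured here, so a barcode was called gamma-delta by its RNA counts alone.

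Other cell types left little RNA in these barcodes, with a few exceptions. Over the 29 genes of the epithelial list, of which Vil1 was at 0 by the rule, 0.712% ± 0.279 (SD, n = 3) of UMIs in control and 0.601% ± 0.0341 (n = 3) in IE-HuR-/- libraries were epithelial, with Apoa1 as the most abundant gene (1072 CPM). The 12 goblet and Paneth markers made up 0.127% ± 0.0367 and 0.0989% ± 0.0174 of UMIs, with Zg16 highest, and the 16 myeloid markers 0.0295% ± 0.00266 and 0.0325% ± 0.00400, with Cst3 highest and Adgre1 at 0. Of 7 CD4 T cell markers, Cd4 (by the rule) and Foxp3 were at 0, and of 10 NK and innate lymphoid markers Ncr1, Eomes, Il23r and Il1rl1 were at 0 while Kit led. Single barcodes held most of the B cell and erythroid RNA. In all, 1 member of IE-HuR-/- replicate 2 held 4148 of the 4534 B and plasma cell UMIs of its library, and 1 member each of control replicate 2, IE-HuR-/- replicate 2 and IE-HuR-/- replicate 3 held 1622, 4704 and 7387 erythroid UMIs, with Hbb-bs the most abundant gene. B and plasma cell markers thus made up 0.0341% ± 0.000702 and 0.126% ± 0.163 of UMIs under the control and IE-HuR-/- labels, and erythroid markers 0.0652% ± 0.0886 and 0.288% ± 0.261. The 8 fibroblast markers summed to 0.000384% and 0.000143%, with Lum, Pdgfra and Igfbp7 at 0.

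Granzyme and chemokine RNAs were among the most abundant of the members. Cytotoxic granule genes made up 3.41% and 3.44% and secreted cytokines and chemokines 2.37% and 2.26% of UMIs under the control and IE-HuR-/- labels, beside 3.17% and 3.31% for mitochondrially encoded RNAs. Beside the noncoding RNAs Gm42418 and Malat1, the most abundant RNAs that are not ribosomal or mitochondrial were Gzma (granzyme A, 25888 ± 1299 CPM, SD, n = 6), the chemokine Ccl5 (21077 ± 922 CPM), Tmsb4x, Actb, Eef1a1 and Gzmb (granzyme B, 4012 ± 261 CPM). Gm42418 alone took 104778 ± 16878 CPM. Perforin (Prf1) was far lower at 78.4 ± 14.0 CPM, as was Fas ligand (Fasl) at 120 ± 21.9 CPM. Of secreted factors after Ccl5, Fgl2 had 694 ± 39.7, Ccl4 483 ± 59.8 and Xcl1 385 ± 92.0 CPM, whereas interferon gamma (Ifng) had 5.26 ± 2.10 CPM and no UMI of Il17a was counted.

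Levels of residence genes, NK-type genes and transcription factors are given next, without a ranking of the groups. Cd7 had 3144 ± 178, Rgs1 1194 ± 93.8, the integrin Itga1 552 ± 49.6, the gut-homing receptor Ccr9 274 ± 57.1 and Cd69 192 ± 21.4 CPM. The signalling adaptors Fcer1g, Tyrobp and Hcst had 1512 ± 172, 1108 ± 178 and 581 ± 50.3 CPM, and the receptors Klrd1 (CD94) and Cd160 had 933 ± 60.3 and 365 ± 52.0 CPM. Of the transcription factors, Ikzf2 (Helios, 621 ± 87.5 CPM), Runx3 (547 ± 28.5), Ets1 (432 ± 48.3) and Id2 (392 ± 28.5) led, Tbx21 (T-bet) had 35.0 ± 4.36 CPM, and Eomes was at 0. Genes of naive and recirculating T cells were low, with Tcf7 at 31.2 ± 4.98 and Il7r at 16.2 CPM.

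Single members differed in what was detected. With every barcode thinned to 1000 UMIs, so that depth could not set the share, Gzma was found in 82.7% and Gzmb in 77.0% of members (means of 6 libraries), Cd8a in 65.9%, Fcer1g in 65.6%, Tcrg-C1 in 55.5%, Klrd1 in 50.04%, Itgae in 48.9%, Cd160 in 27.3%, Ccr9 in 20.5% and Cd69 in 15.6%. Without thinning, the shares were 87.2%, 82.8%, 87.7%, 83.6%, 86.9%, 80.7%, 91.8%, 64.9%, 55.3% and 44.6%. Mki67, a marker of cycling cells, was found in 2.22% of thinned and 6.57% of unthinned members. Trdc itself was kept by 65.0% of members after thinning.

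Variable gene UMIs were rarer than those of the constant genes. At least 1 Tcrg variable gene was counted in 1330 members, and 527 of these carried more than 1. Trgv2 was counted in 1190, Tcrg-V1 in 359, Tcrg-V7 in 241, Tcrg-V4 in 122 and Tcrg-V3 in 23 members. Delta variable genes were found in 208 members, led by Trdv2-2 (105), Trdv5 (53) and Trdv1 (30). Trgv2 was also found in 628 of the 1178 Trdc-negative barcodes, against 23 for Tcrg-V7 and 4 for Trdv2-2. Members with a Tcrg-V7 UMI had 1408 ± 150 CPM of Tcrg-C1 (range 1214 to 1587 over 6 libraries), and the 1089 members with only other Tcrg variable genes had 986 ± 97.3 CPM (853 to 1094), so the ranges did not overlap. For Tcrg-C2 the values were 509 ± 48.7 and 572 ± 30.7 CPM, with overlapping ranges. The library ranges also overlapped for Gzma (28021 ± 3554 and 25120 ± 1186 CPM), Itgae (720 ± 114 and 704 ± 40.5) and Cd160 (345 ± 79.7 and 378 ± 61.2). These values describe a division made after the counts had been seen and were not tested.

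The gamma-delta barcodes were next set against CD3-positive barcodes without Trdc from the same libraries. Tcrg-C1 was higher and Cd5, Cd6, Cd8b1 and Cd2 were lower in gamma-delta barcodes of all 6 libraries, while the summed counts of Gzma and Gzmb were not called. For Tcrg-C1, Cd6 and Cd8b1 the rule of naming required 1 direction in all 6 libraries. Sums of counts per library and population entered a quasi-likelihood fit in edgeR that held the library as a block. Of 8531 RNAs tested, 214 passed an adjusted p of 0.05 (2.51%), of which 86 were higher (1.01%) and 128 lower (1.5%) in gamma-delta barcodes. Without TMM scaling the division was 122 higher and 92 lower. With DESeq2 59 RNAs were called, and 57 without the library as a block. When members with a Trac, Trbc1 or Trbc2 UMI were left out, 173 were called (14 higher and 159 lower), 21 of them also with all members, and of the 166 of the 214 RNAs that could be tested, 76 kept their sign. A Tcrg-C1 UMI was found in 381 Trdc-negative barcodes, and how many of these were gamma-delta cells with uncaptured Trdc was not tested.

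Of 8 gamma-delta receptor genes tested, 7 were higher in gamma-delta barcodes and none lower. Tcrg-C1 had 1000, 1009 and 1093 CPM in the control and 1114, 1028 and 1181 CPM in the IE-HuR-/- members, against 253, 243 and 261 CPM and 151, 205 and 201 CPM in the Trdc-negative barcodes. Tcrg-C1 was higher in the members of every library, as the rule of naming required. Its log2 fold change was 2.31 (SE 0.141, adjusted p = 0.00115, where SE is the standard error). Tcrg-V7 was higher by 2.64 (SE 0.248, adjusted p = 5.86e-16), Trdv2-2 by 4.06 and Tcrg-V1 by 0.75 on the log2 scale. Tcrg-C2, Tcrg-C4 and Trgv2 differed far less, by 0.32, 0.33 and 0.35, and all had at least 259.5 CPM in every Trdc-negative library. All 3 alpha-beta receptor genes were lower in gamma-delta barcodes, Trac with a log2 fold change of -0.92 (adjusted p = 4.19e-29), Trbc1 by -0.61 and Trbc2 by -0.59, yet none was absent. The plot of receptor RNAs shows both sides.

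**Figure D1:**
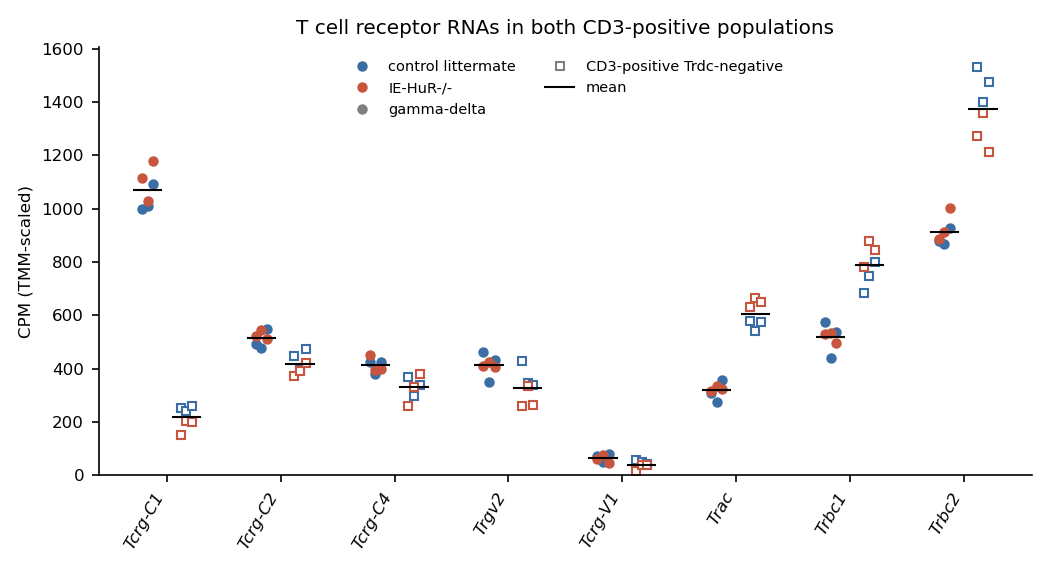
Receptor RNAs in CPM after TMM scaling (vertical axis), for each gene on the horizontal axis in gamma-delta barcodes (filled circles, left) and CD3-positive Trdc-negative barcodes (open squares, right) of 3 control (blue) and 3 IE-HuR-/- libraries (red), with the mean of 6 libraries as a line. Tcrg-C1 lies near 1000 CPM in all 6 gamma-delta sums and at most 261 CPM in the others, whereas Tcrg-C2, Tcrg-C4 and Trgv2 are close in both.

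RNAs of several surface proteins, Cd5, Cd6, Cd8b1 and Cd2 among them, were lower in gamma-delta barcodes, beside other RNAs. Cd5, which dampens receptor signalling, was at 0.776, 0 and 0 CPM in the control and 0.791, 2.81 and 1.85 CPM in the IE-HuR-/- members, against 33.4, 15.1 and 15.5 CPM and 65.7, 66.4 and 71.6 CPM without Trdc. Its log2 fold change was -5.24 (SE 0.293, adjusted p = 2.4e-31). Cd6, a relative of Cd5, was lower by -3.74 (adjusted p = 4.76e-11), Cd8b1 by -2.97 (adjusted p = 0.0042), the adhesion receptor Cd2 by -2.75, the interleukin 7 receptor Il7r by -2.06 and Thy1 (CD90) by -1.08 on the log2 scale. Ms4a4b was lower by -2.44, the galectin Lgals1 by -2.06, the NK receptor Klre1 by -1.19, the noncoding RNA Gm26740 by -0.79 and the dynamin Dnm3 by -0.74. These RNAs were lower in the gamma-delta barcodes than in the barcodes beside them in all 6 libraries. The rule of naming required this for all of them but Cd5 and Cd2. In the comparison barcodes the control and IE-HuR-/- levels did not overlap for Cd5, Cd6, Cd8b1, Cd2, Il7r, Thy1, Lgals1 and Klre1. Each of these was higher there with the IE-HuR-/- label. How many of all RNAs were apart in this way is not given, so this describes the named RNAs alone. Of 14 genes for CD3 and receptor signalling, 3 were higher and 5 lower, and the adaptor Lat was among the lower. Of 3 tested genes of naive and recirculating T cells, Il7r and Satb1 were lower.

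Other RNAs were higher in gamma-delta barcodes. Kit, the stem cell factor receptor, had 151, 124 and 116 CPM in the control and 138, 96.8 and 159 CPM in the IE-HuR-/- members, against 95.8, 97.0 and 80.7 CPM and 63.6, 56.5 and 67.6 CPM, and the log2 fold change was 0.81 (SE 0.0925, adjusted p = 2.25e-11). Cd247, the zeta chain of the receptor complex, was higher by 0.77, Car2 (carbonic anhydrase 2) by 0.66, the actin-severing protein Scin by 0.82, the nuclear receptor Nr4a2 by 0.59 and the transcriptional repressor Heyl by 0.63 on the log2 scale. Cd79b, known as a B cell receptor chain, was higher by 0.85 (47.0 to 73.7 CPM against 24 to 43.9 CPM), while Cd79a was at 4.01 CPM in the members. Abcb9, Ethe1 and Tsga10 followed with 0.60, 0.58 and 0.57. Of 14 NK-type receptors and adaptors, Klrd1 (0.26) and Hcst were higher and 3 lower, Klrk1 and Klre1 among them. Fcer1g was higher by 0.22 (adjusted p = 3.29e-05) and Cd7 by 0.26 (adjusted p = 1.9e-08), both in 6 of 6 libraries, while Tyrobp differed by -0.03 (adjusted p = 0.842). Among the 72 members without a Trac, Trbc1 or Trbc2 UMI, the fold changes of Fcer1g (-0.93), Cd7 (-0.49), Klrd1 (-0.17), Hcst (-0.13), Abcb9 (-0.81), Ethe1 (-0.14), Tcrg-C2 (-0.26) and Tcrg-C4 (-0.22) had the opposite sign. These members numbered 6 to 18 per library, with 18561 to 51947 UMIs in each sum.

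**Figure D2:**
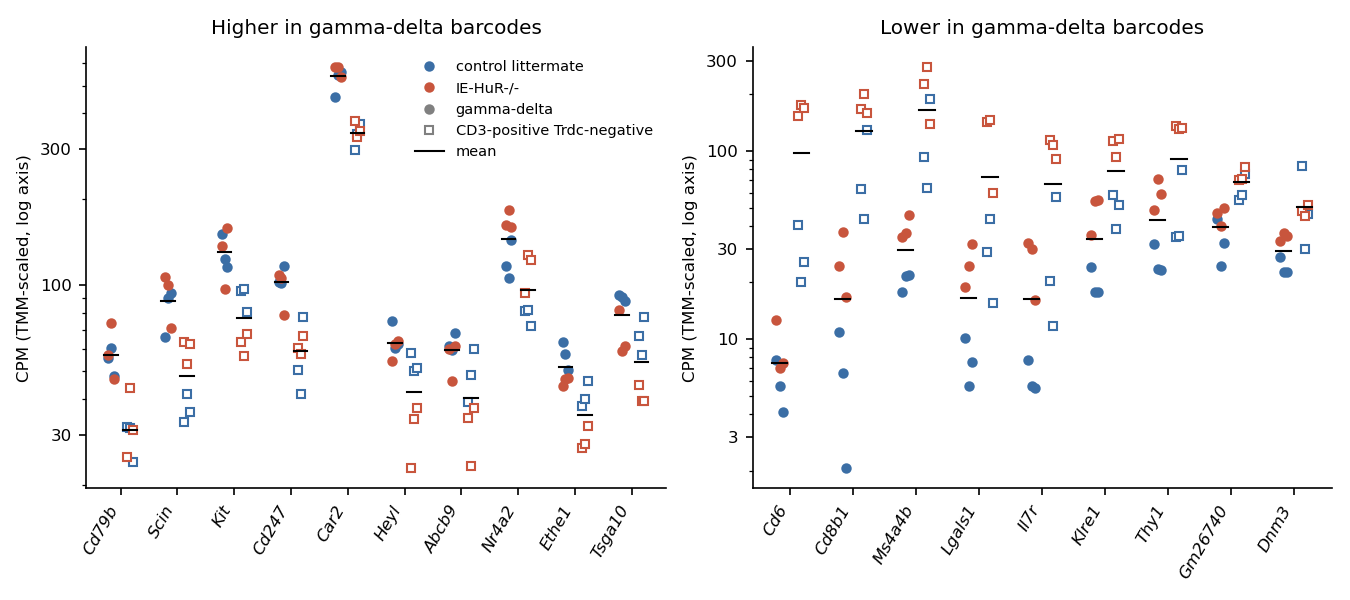
RNAs with a mean of at least 50 CPM in 1 population named for the comparison of the populations, other than receptor genes, in CPM after TMM scaling on log axes, in gamma-delta (filled circles) and CD3-positive Trdc-negative barcodes (open squares) of 3 control (blue) and 3 IE-HuR-/- libraries (red), with means of 6 libraries as lines. Cd6 and Cd8b1 show the widest gaps, and the red squares lie above the blue squares for Cd6, Cd8b1, Lgals1, Il7r, Klre1 and Thy1. Cd8b1 and Il7r reached 50 CPM only in Trdc-negative barcodes, where they were high, so the gaps describe the RNAs that passed and no others.

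Gzma, Gzmb, Cd8a and Itgae were not called between the populations in summed counts. Gzma had a log2 fold change of 0.12 (adjusted p = 0.123), Gzmb of 0.21 (adjusted p = 0.416), Cd8a of 0.09 (adjusted p = 0.374) and Itgae of 0.15 (adjusted p = 0.076). The share of barcodes with a granzyme UMI nevertheless stood apart. After thinning to 1000 UMIs, Gzma was found in 82.6% ± 2.79 of gamma-delta and 67.9% ± 4.78 of Trdc-negative barcodes in control and in 82.9% ± 1.39 and 76.6% ± 1.95 in IE-HuR-/- libraries (SD, n = 3 each). Gzmb was found in 76.7% ± 3.76 and 57.5% ± 4.36 in control and in 77.3% ± 0.353 and 67.4% ± 3.94 in IE-HuR-/- libraries. Both shares were higher in gamma-delta barcodes in 6 of 6 libraries, a difference that was not tested. Of 15 cytotoxic granule genes, Nkg7 and Ctsc were higher and none was lower (7 had an unadjusted p under 0.05, and DESeq2 called 0). Among members without a Trac, Trbc1 or Trbc2 UMI both had the opposite sign (Nkg7 -0.80, Ctsc -0.11). Of 22 cytokine receptor and signalling genes edgeR and DESeq2 called 0, with 3 at an unadjusted p under 0.05, and of 23 cell cycle genes both called 0, with 2 at an unadjusted p under 0.05. The share of mt- UMIs entered the rule as an upper limit for both populations, so it is given as a description, with a median of 2.83% to 3.24% in members and 3.19% to 3.67% in Trdc-negative barcodes of the 6 libraries. Of the 13 mt- RNAs, which stayed in the fit, 9 were lower in members and none was higher (DESeq2 called 8). Their sum was limited by the rule, so these calls are a description too. Of 28 epithelial markers tested, 8 were lower and none higher in the members, at a summed level of 0.451% to 1.01% of UMIs against 0.518% to 1.13% in the Trdc-negative barcodes. The part of this epithelial RNA in the other differences was not tested.

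Whether the label changed the members was asked next, beginning with the targeted gene. Elavl1, which encodes HuR, had 76.1, 98.8 and 83.6 CPM in control members and 92.6, 81.2 and 95.5 CPM in members of the libraries labelled IE-HuR-/-. The groups overlapped (log2 fold change 0.07, SE 0.124, adjusted p = 0.918). In Vil1-positive CD3-negative barcodes, where the Cre is driven, it had 30.3 CPM under the control label and 32.1 CPM under the other, so RNA counts of Elavl1 did not tell the labels apart. Which exons the deletion removes is not given in the sources used here, and UMIs from outside them would not show it. Directions below are those of the labels. All 6 libraries carried Y-linked RNAs (34.0 to 43.0 CPM of Ddx3y over all barcodes) with Xist at 0.0763 to 0.166 CPM.

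Gamma-delta barcodes made up a smaller share of the CD3-positive barcodes under the IE-HuR-/- label. The share was 62.2% (95% Wilson interval 57.5% to 66.7%), 60.5% (56.0% to 64.9%) and 66.4% (61.6% to 70.9%) in the control libraries. It was 54.3% (49.99% to 58.6%), 52.1% (47.7% to 56.5%) and 56.0% (51.8% to 60.1%) in those labelled IE-HuR-/-. The groups did not overlap, with means of 63.0% ± 3.04 and 54.1% ± 1.95 (SD, n = 3 each) and p = 0.1 in a two-sided exact permutation test, the smallest that 3 libraries against 3 can give. The intervals cover counting error only. The number of members hardly differed (267 ± 10.6 and 278 ± 19.7), while that of Trdc-negative barcodes was 158 ± 25.6 and 235 ± 4. With at least 2 Trdc UMIs required, the difference was -5.71 points and the libraries overlapped (exact permutation p = 0.2), and without the conditions on Cd4 and Vil1 it was -13.7 points (exact permutation p = 0.1). Of all barcodes that passed the UMI and mt- limits, members made up 4.52% ± 1.57 and 5.22% ± 0.482 (exact permutation p = 0.6), the opposite direction. Gated after thinning to 1000 UMIs, the share was 41.5% ± 4.49 and 37.8% ± 1.96 (exact permutation p = 0.2), with overlapping libraries.

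Most RNAs of the members were not called between the labels. Of 9027 RNAs tested with edgeR, 103 passed an adjusted p of 0.05 (1.14%), of which 44 were higher (0.487%) and 59 lower (0.654%) with the IE-HuR-/- label. An unadjusted p under 0.05 was reached by 921. Without TMM scaling 58 were higher and 51 lower. DESeq2 called 28 higher and 53 lower, and 52 of these 81 were called by both tools. The count rested on single libraries: it was 359 without control replicate 3 (70 higher and 289 lower), 61 without control replicate 1, and 64, 48 and 40 without IE-HuR-/- replicates 1, 2 and 3. The called RNAs were divided by where they were most abundant. Those at least as abundant in gamma-delta as in Vil1-positive CD3-negative barcodes numbered 31 higher and 12 lower, 0.657% of 6541 tested. Those more abundant in the epithelial barcodes numbered 13 higher and 47 lower, 2.41% of 2486 tested. The median mt- share of members, which the rule capped, was 2.87% ± 0.0341 in control and 3.11% ± 0.150 in IE-HuR-/- libraries. These libraries did not overlap (SD, n = 3 each), which is given as a description because the rule limited this share. Of the 13 mt- RNAs, edgeR and DESeq2 called 0 (1 at an unadjusted p under 0.05 with edgeR).

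Capg, Thy1 and Gm156 led the rises named among called RNAs that had a mean of at least 50 CPM under 1 of the labels and were at least as abundant in gamma-delta as in epithelial barcodes. Capg and Thy1 reached that mean only with the IE-HuR-/- label, where they were high, so the order describes the RNAs that passed and no others. Of 12 genes for CD3 and receptor signalling, Thy1 rose and Fcer1g fell, and of 12 NK-type receptors and adaptors, Klre1 rose and Tyrobp fell. Thy1 had 32.2, 24 and 23.5 CPM in the control and 48.3, 71.3 and 59.5 CPM in the IE-HuR-/- members, with no overlap, a log2 fold change of 1.17 (SE 0.185) and an adjusted p of 0.00029. Capg, an actin-capping protein, had 22.8, 21.1 and 30.4 CPM against 45.9, 62.1 and 62.6 CPM, a log2 fold change of 1.19 (adjusted p = 0.000289). Gm156, a protein-coding gene at chr6:129766568-129784270 (minus strand), had 139, 114 and 106 CPM against 231, 224 and 298 CPM, a log2 fold change of 1.07 (adjusted p = 1.55e-05). Each of these RNAs was higher in every IE-HuR-/- library than in any control library, as the rule of naming required. The transcription factor Runx2 rose by 0.91, the kinase Pim2 by 0.81, Gmfg, a regulator of actin branching, by 0.74, the integrin Itga4 by 0.68 and the G protein-coupled receptor P2ry10 by 0.58 on the log2 scale. The long noncoding RNA Gm19585 (chr17:51986415-52163976) rose by 0.66, Ppp1r3b by 0.73, Gm2a by 0.72 and the ubiquitin ligase Rnf19b by 0.59.

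Rises were also called for other genes of the fixed lists. Ccr9, whose ligand is made by small intestinal epithelium, had 263, 218 and 218 CPM in the control and 331, 333 and 307 CPM in the IE-HuR-/- members (log2 fold change 0.47, SE 0.0918, adjusted p = 0.00305). Of 24 genes for the CD8 coreceptor and residence, 3 rose, Ccr9, Itga4 and the adhesion gene Tmigd1, whose direction turned when barcodes with Vil1 UMIs were kept, and none fell. Of 19 transcription factors, Tox (0.40), Nr4a1 (0.99, adjusted p = 0.0254) and Nr4a2 (0.44) rose. Nr4a1, an early gene of receptor signalling, went from 16.5, 22.1 and 11.7 CPM to 34.0, 29.6 and 33.5 CPM. The calls of Nr4a1, Nr4a2, Tox and Itga4 held in 5 of 17, 6 of 18, 9 of 18 and 9 of 18 alternatives, and DESeq2 called 1 of the 19 transcription factors. Of 23 immediate-early and stress genes none rose and Jun fell (edgeR, 6 at an unadjusted p under 0.05, and DESeq2 called 1). Il7r had 7.85, 5.76 and 5.53 CPM in the control and 32.5, 30.3 and 16.1 CPM in the IE-HuR-/- members (log2 fold change 2.00, SE 0.331, adjusted p = 0.00059), and Klre1 had 24.3, 18.2 and 18.0 CPM and 35.6, 54.3 and 55.2 CPM (1.27, adjusted p = 0.000561). Il7r, Klre1 and Thy1 were also among the RNAs more abundant in Trdc-negative barcodes, and Cd8b1, a marker of those cells, had 11, 6.71 and 2.07 CPM in control and 24.5, 37.4 and 16.7 CPM in IE-HuR-/- members (adjusted p = 0.0592). Members with a Cd5, Cd6 or Cd8b1 UMI numbered 12, 8 and 6 in control and 29, 25 and 24 in IE-HuR-/- libraries. Without these 104 members, 37 RNAs were higher and 41 lower. Over the alternatives in which each could be tested, the calls of Il7r and Klre1 held in 17 of 17 and that of Thy1 in 17 of 18. Fcer1g, more abundant, could be tested in 19.

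Among the 12 lower RNAs that were at least as abundant in gamma-delta as in epithelial barcodes were Fcer1g, Tyrobp, Ighm and Gm47283. Fcer1g, the gamma chain shared by Fc and NK receptors, had 1687, 1626 and 1803 CPM in the control and 1369, 1373 and 1399 CPM in the IE-HuR-/- members, a log2 fold change of -0.31 (SE 0.0618, adjusted p = 0.00474). The related adaptor Tyrobp (DAP12) had 1144, 1313 and 1418 CPM against 964, 987 and 966 CPM, a log2 fold change of -0.41 (adjusted p = 0.00095). Neither gene's libraries overlapped between the labels, as the rule of naming required. Among the 72 members without alpha-beta receptor UMIs, however, the log2 fold changes were 0.02 (Fcer1g), 0.22 (Tyrobp) and 0.20 (Dapk2). Ighm, the constant gene of immunoglobulin mu, had 192, 186 and 194 CPM against 114, 119 and 109 CPM (log2 fold change -0.74, adjusted p = 7.82e-06). Of the 13 B and plasma cell markers, 5 were tested and Ighm alone was called, Pax5 was at 0 and Cd79a at 4.01 CPM in the members, and Ighm had 156 CPM in Trdc-negative and 5.93 CPM in epithelial barcodes. Gm47283, a gene annotated at chrY:90784738-90816464, had 50.2, 43.2 and 57.3 CPM against 16.6, 14.1 and 19.8 CPM (-1.57, adjusted p = 7.82e-06), while the 4 sex-linked genes tested gave no call (0 at an unadjusted p under 0.05 with edgeR, 0 with DESeq2). The kinase Dapk2 fell by 0.48, Cables1 by 0.60, Cited4 by 0.45, Pmepa1, an inhibitor of TGF-beta signalling, by 0.39 and the class I gene H2-K1 by 0.27 on the log2 scale. The calls of Pmepa1, Cited4 and H2-K1 held in 5 of 18, 7 of 18 and 7 of 19 alternatives, and DESeq2 called none of the 12 MHC class I genes. Jun, called but not among the RNAs named for this class, fell by 0.58 (256, 268 and 278 CPM against 212, 163 and 164 CPM).

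**Figure D3:**
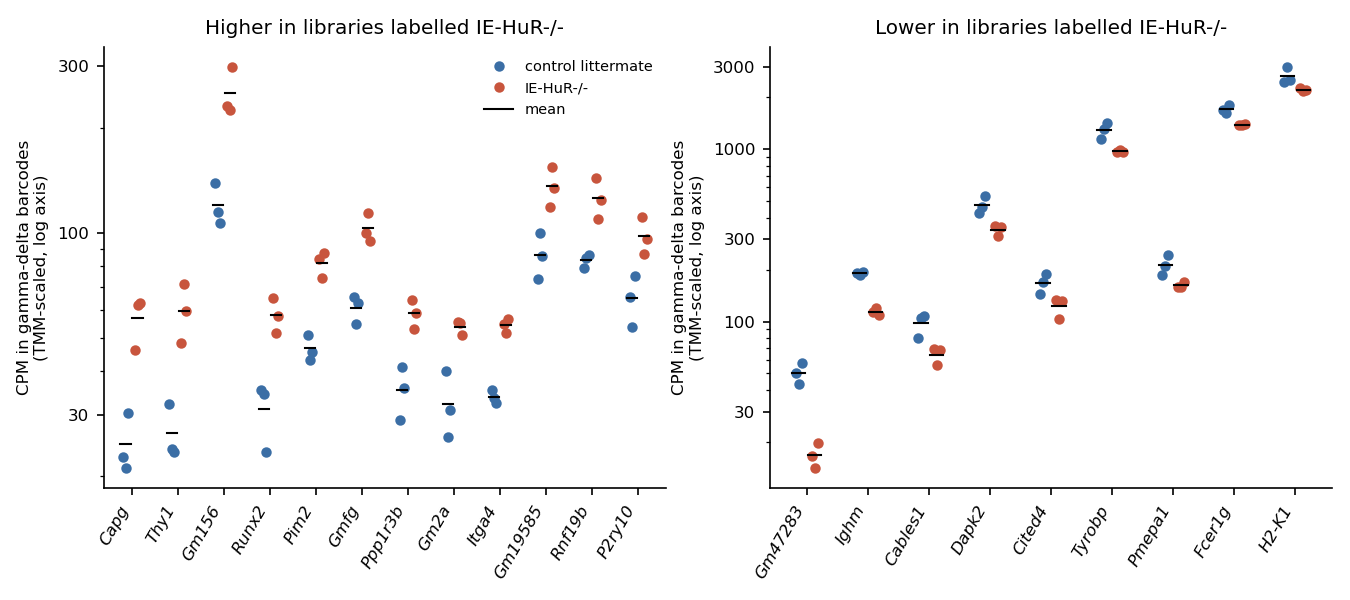
RNAs named for the label that were at least as abundant in gamma-delta as in epithelial barcodes, in CPM after TMM scaling on log axes, with 1 point per control (blue) and IE-HuR-/- library (red) and the mean of 3 libraries as a line. Blue and red points do not overlap for any gene shown, as the rule of choice required, and the gaps are widest for Capg, Thy1 and Gm156 on the left and Gm47283 on the right.

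Neither granzyme A or B nor Ccl5, Cd8a, Itgae or Tcrg-C1 was called between the labels. Gzma had a log2 fold change of -0.05 (adjusted p = 0.696), Gzmb of 0.07 (adjusted p = 0.692), Ccl5 of -0.12 (adjusted p = 0.259), Cd8a of 0.13 (adjusted p = 0.544), Itgae of 0.00 (adjusted p = 0.996) and Tcrg-C1 of 0.09 (adjusted p = 0.735). edgeR and DESeq2 both called 0 of 15 cytotoxic granule genes (3 at an unadjusted p under 0.05), 0 of 8 gamma-delta receptor genes (0), 0 of 22 cytokine receptor and signalling genes (9), 0 of 26 cell cycle genes (4) and 0 of 14 AU-rich element binding protein genes (1), a functional group that includes HuR. Of these 14, 12 had a log2 fold change above 0 (median 0.08), and their list took 0.264% to 0.293% of member UMIs in control and 0.299% to 0.310% in IE-HuR-/- libraries. The Trdc-negative barcodes were likewise apart (0.260% to 0.279% and 0.289% to 0.306%), and so were the members for the lists of transcription factors (0.283% to 0.309% and 0.324% to 0.330%) and of glycolysis and lactate genes (0.174% to 0.190% and 0.201% to 0.207%). Members were also apart for the naive and recirculating T cell genes (0.00411% to 0.00503% and 0.00731% to 0.0111%). Each of these list shares had an unadjusted exact permutation p of 0.1, the smallest possible here. In members the class II genes, given below, had the same p, and every other list compared had a larger one. Shares of members with a UMI were compared as well. Of 29 genes compared after thinning, none passed a Benjamini-Hochberg adjusted p of 0.05 in exact permutation tests, and 3 libraries against 3 cannot give an unadjusted p under 0.1. Fcer1g was found in 72.2% ± 2.69 of control and 59.0% ± 4.13 of IE-HuR-/- members, and Cd160 in 23.5% ± 2.05 and 31.05% ± 3.25 (SD, n = 3 each, exact permutation p = 0.1, adjusted p = 0.644 for both). Without thinning none of 32 genes passed either.

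RNAs that were more abundant in epithelium made up most of the remaining calls. The muscle actin Acta1 had 1.57, 2.88 and 3.45 CPM in the control and 77.6, 70.6 and 86.2 CPM in the IE-HuR-/- members (log2 fold change 4.83, adjusted p = 4.36e-14), and in Vil1-positive CD3-negative barcodes it had 20.4 and 1308 CPM. The metallothionein Mt1 had 30.6, 48.9 and 32.5 CPM against 137, 124 and 135 CPM (1.85, adjusted p = 2.44e-10), with 223 and 2143 CPM in the epithelial barcodes. Saa1, an acute-phase gene, had no UMI in the 3 control sums and 19.0, 14.8 and 21.7 CPM in the others. Of 6 MHC class II genes tested, Cd74, H2-Aa, H2-Ab1 and H2-Eb1 rose, and the median log2 fold change of the 6 was 1.35, beside -0.01 over all RNAs. H2-Aa had 23.5, 17.3 and 11.7 CPM against 64.1, 57.9 and 65.7 CPM in the members (1.85, adjusted p = 3.77e-07), and 127 and 883 CPM in the epithelial barcodes. Class II genes took 0.0113% to 0.0158% of member UMIs in control and 0.0330% to 0.0379% in IE-HuR-/- libraries, and much the same in Trdc-negative barcodes (0.00777% to 0.0134% and 0.0336% to 0.0355%).

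Of 28 epithelial markers tested, edgeR called Acta1, Mt1 and Saa1 as higher and S100g as lower, and DESeq2 called 8. A log2 fold change above 0 was found for 8 of the 28 (median -0.17), and 11 had an unadjusted p under 0.05 with edgeR. The other falls named for RNAs more abundant in epithelium, again with a mean of at least 50 CPM under 1 label, lay outside that list. The glucose transporter Slc2a2, which reached that mean only with the control label, had 61.2, 96.9 and 45.6 CPM in the control and 19.0, 16.9 and 21.7 CPM in the IE-HuR-/- members (log2 fold change -1.77, adjusted p = 0.00831), and 406 and 223 CPM in the epithelial barcodes. Cyp2j6 (-1.27), Ugt2b34 (-1.23), Bpnt1 (-1.37), Ano6 (-0.76) and Spint2 (-0.70) fell too, all with higher levels in the epithelial barcodes. S100g, a calcium-binding protein of enterocytes, had 18.1, 28.8 and 19.3 CPM against 1.58, 0 and 0 CPM, and the interferon-stimulated gene Ifit1, the single one called of 36, had 18.8, 32.6 and 22.8 CPM against 5.54, 6.35 and 8.68 CPM. The part of free epithelial RNA in these differences was not tested. With only members of under 2% epithelial UMIs kept, 257, 274 and 259 remained of 263, 279 and 259 in control libraries. In IE-HuR-/- libraries 273, 257 and 295 of 275, 260 and 299 remained. Among them 104 RNAs were called, 45 higher and 59 lower. Since so few members were removed, this count does not bear on that part.

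**Figure D4:**
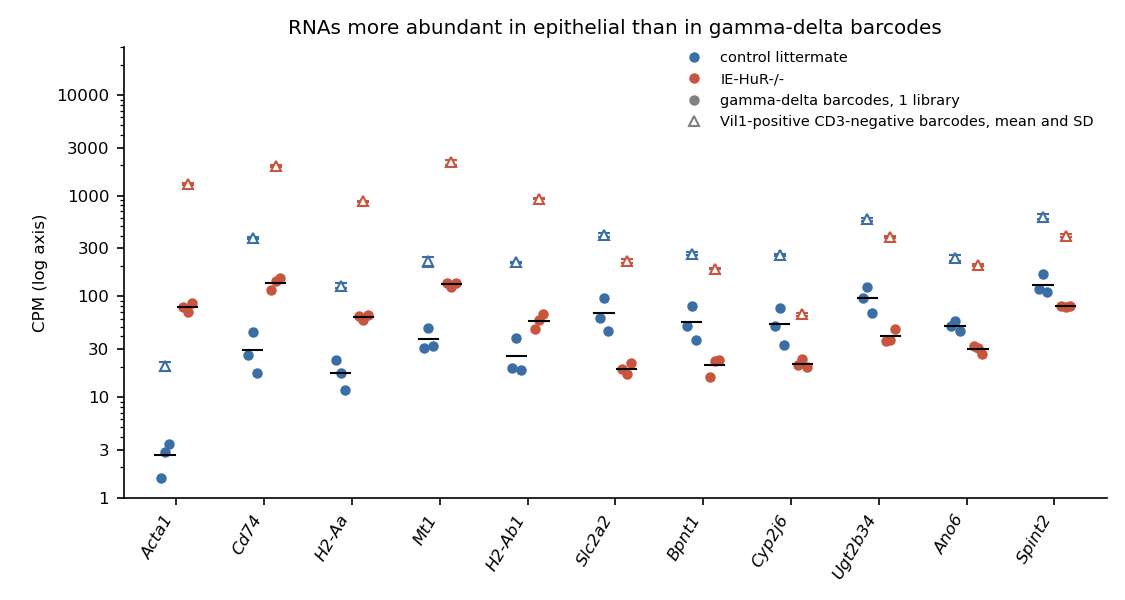
RNAs named for the label that were more abundant in epithelial barcodes, in CPM on a log axis, with filled circles for gamma-delta barcodes of each control (blue) and IE-HuR-/- library (red, TMM-scaled, line at the mean of 3) and open triangles for the mean and SD over 3 libraries in Vil1-positive CD3-negative barcodes (not TMM-scaled). The triangles lie above the circles of their label for every gene shown, and Acta1 and Mt1 rise in both kinds of barcode.

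The last question was whether the label difference was the same in gamma-delta and in Trdc-negative barcodes. A term for that difference was fitted with the library as a block, and 14 of 8531 RNAs passed an adjusted p of 0.05 (0.164%), 5 positive (0.0586%) and 9 negative (0.105%), where a positive value means a larger log2 change with the IE-HuR-/- label in gamma-delta barcodes. The count was 7 without control replicate 1 and 9 without either control replicate 3 or IE-HuR-/- replicate 3, and DESeq2 called 3. Gzmk, a granzyme of memory CD8 cells, had 42.7, 49.9 and 42.6 CPM in control and 45.9, 39.3 and 30.3 CPM in IE-HuR-/- members, but 27.6, 18.4 and 25.8 CPM and 96.9, 87.0 and 72.6 CPM in Trdc-negative barcodes (difference of log2 changes -2.05, SE 0.275, adjusted p = 2.33e-07). Cd6, Inpp4b and Dnajc15 were also on the negative side, with -1.91, -1.23 and -0.80. Gzmb, which the label left at 3702 to 4305 CPM in members, had 2970, 2911 and 3389 CPM in control and 3566, 4006 and 4439 CPM in IE-HuR-/- Trdc-negative barcodes, a difference of -0.28 (adjusted p = 0.0403). The difference of Gzmb was called in 5 of 17 alternatives and was 0.28 among members without alpha-beta receptor UMIs, and that of Cd6 was called in 6 of 15.

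On the positive side, Capg was higher with the IE-HuR-/- label in members, while its Trdc-negative libraries overlapped. It had 22.5, 20.7 and 30.2 CPM and 45.9, 61.7 and 62.4 CPM in members, and 27.6, 55.2 and 34.4 CPM and 30.2, 31.4 and 33.3 CPM in Trdc-negative barcodes (1.48, SE 0.303, adjusted p = 0.00446). Ikzf2 (Helios) had 625, 502 and 579 CPM and 701, 657 and 700 CPM in members against 653, 567 and 704 CPM and 606, 552 and 592 CPM (0.41, adjusted p = 0.0403), a call that held in 4 of 17 alternatives. Tcrg-C1 had a difference of 0.54 (adjusted p = 0.00348), with 252.5, 242.6 and 261.1 CPM in control and 151.1, 204.5 and 200.6 CPM in IE-HuR-/- Trdc-negative barcodes and 1000 to 1181 CPM in members. Klra5, an NK receptor of the Ly49 family, had 120, 95.1 and 136 CPM and 97.3, 107 and 121 CPM in members against 219, 136 and 153 CPM and 67.7, 63.7 and 36.3 CPM (1.495, adjusted p = 0.0233), and the protease Capn3 followed with 0.75. Among members without alpha-beta receptor UMIs the difference of Klra5 was -2.68. Thy1, Il7r and Klre1, which rose in members, were not called for a difference between the populations. Since the Trdc-negative barcodes can hold gamma-delta cells whose Trdc was missed, the part of that mixture in these differences was not tested.

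**Figure D5:**
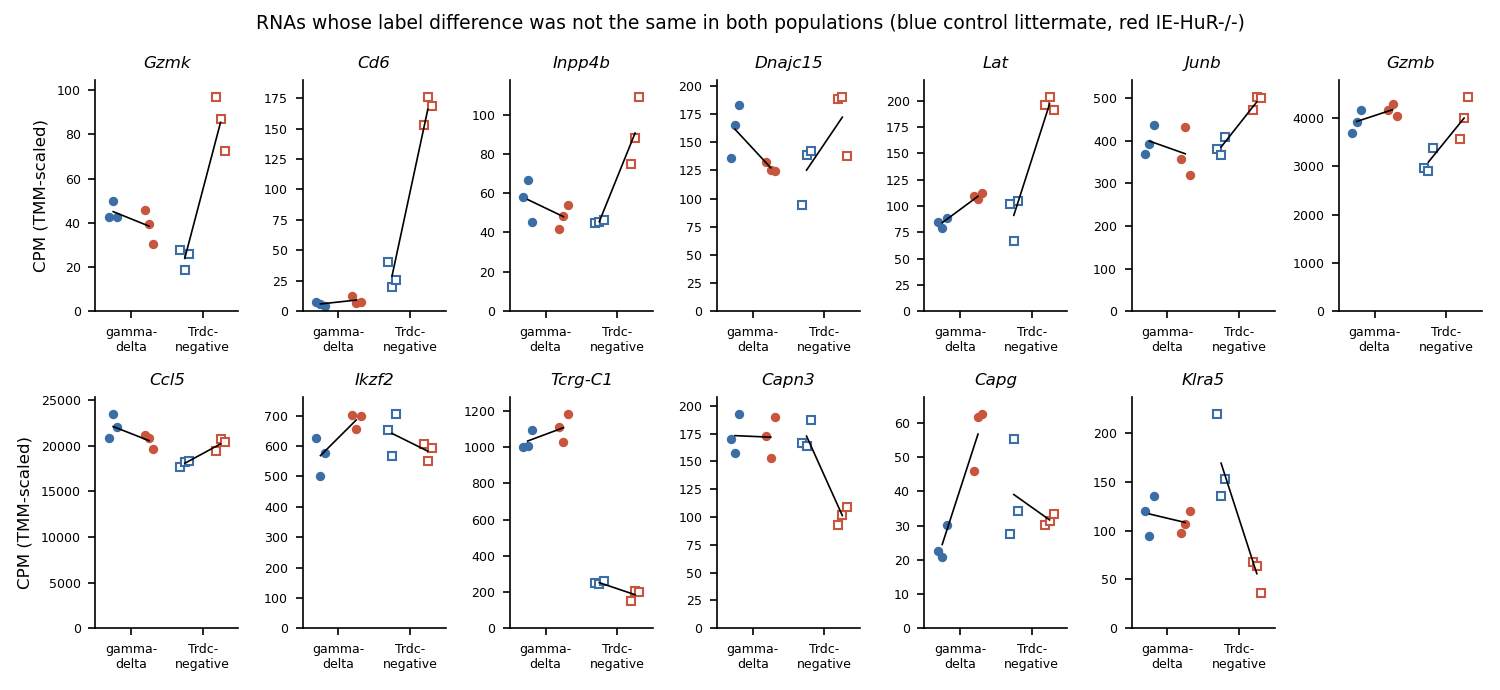
The 13 RNAs shown of those called for a difference of the label effect, in CPM after TMM scaling from 0 upward, in gamma-delta (filled circles) and Trdc-negative barcodes (open squares), with 1 point per control (blue) and IE-HuR-/- library (red) and a line between the means of 3. The lines of Gzmk, Cd6 and Lat climb steeply in Trdc-negative barcodes, and that of Capg climbs in gamma-delta barcodes.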

How the data were processed

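UMI counts of genes by barcodes, as the authors deposited them, came from Cell Ranger (version 6.1.2 in the file headers, another in the methods), without normalization, on 32285 features. Submitters' notes name mm10 and Seurat. The labels name a 5′ kit, the methods a 3′ kit and a human reference. The members and gene lists were chosen with earlier results of these data known. Counts were summed per library and population, Trdc, Cd3d, Cd3e, Cd3g, Cd4 and Vil1 were left out, and filterByExpr (minimum count 10, total 15), TMM and edgeR 4.0.16 in R 4.3.3 were run, with DESeq2 1.42.0 as an alternative. The scripts were tested on simulated counts. No doublet caller was run. A rule named, among called RNAs of at least 50 CPM with separated libraries (for populations, 1 direction in 6 libraries), the 12 largest each way (6 for RNAs more abundant in epithelium), 5 each way for the population difference, Elavl1, and called or abundant list genes. Single values used two-sided exact permutation tests. One library per animal was the replicate. Same-numbered libraries were not paired by the labels. Of the 14 RNAs called for the difference of label effects, 1 is not reported here.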

Additional observations from a re-analysis of the deposited data

Results flagged for a closer look

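For 14 RNAs, 13 of which are given here, the difference between the labels was not the same in gamma-delta as in CD3-positive Trdc-negative barcodes, by a test of that difference in edgeR (adjusted p under 0.05). The difference of log2 changes, gamma-delta minus Trdc-negative, was -2.05 for Gzmk, -1.91 for Cd6, -1.23 for Inpp4b, -0.80 for Dnajc15, -0.73 for Lat, -0.47 for Junb, -0.28 for Gzmb and -0.26 for Ccl5. It was 0.41 for Ikzf2, 0.54 for Tcrg-C1, 0.75 for Capn3, 1.48 for Capg and 1.495 for Klra5. DESeq2 called 3 RNAs, 1 positive and 2 negative. The calls of Ikzf2, Gzmb, Lat and Junb held in 4, 5, 6 and 7 of 17 alternatives, and that of Cd6 in 6 of 15.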

How the results depend on the processing

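The 103 RNAs called for the label became 241 without the filter on low counts, 67 with the replicate block, 52 after thinning, 35 when Vil1 UMIs were kept (added after seeing the data), 2 among the 72 members without Trac or Trbc UMIs, where 444 RNAs could be tested, and 40 to 359 when 1 library was left out. The 214 of the population comparison became 59 with DESeq2, 57 without the library block, 111 after thinning, 173 without Trac or Trbc UMIs (14 higher and 159 lower, 76 of 166 with their sign kept), 3324 with Vil1 UMIs kept and 148 to 197 with 1 library left out. The 14 differences of the label effect became 3 with DESeq2, 3 after thinning, 4 with Vil1 UMIs kept, 7 without barcodes of 10 or more B cell or erythroid UMIs, 0 without Trac or Trbc UMIs (edgeR, 152 at an unadjusted p under 0.05) and 7 to 19 with 1 library left out. Same-numbered libraries did not deviate together (correlations 0.000635, -0.0109 and -0.0343), so the block marks a number only.
Among CD3-positive barcodes, the difference in the share of gamma-delta barcodes was -8.89 points and ran from -10.1 to -7.20 with 1 library left out. As a share of all barcodes that passed the UMI and mt- limits, another denominator, the difference was 0.70 points. Without Trac or Trbc UMIs, signs also turned for Apoa1 (0.38), Ctsc (-0.11), Nkg7 (-0.80), Ptpn6 (-0.16), mt-Co3 (0.48), Abcb9 (-0.81), Cd7 (-0.49), Ethe1 (-0.14), Fcer1g (-0.93), Hcst (-0.13), Klrd1 (-0.17), Tcrg-C2 (-0.26) and Tcrg-C4 (-0.22) between populations, for Dapk2 (0.20), Fcer1g (0.018) and Tyrobp (0.22) between labels, and for Ccl5 (0.90), Gzmb (0.28) and Klra5 (-2.68) in the difference of label effects. Elavl1 ran from -0.012 to 0.17 with 1 library left out (label), negative without control replicate 1. Between populations Elavl1 was -0.30 after thinning and was called in 1 of 20 alternatives. For the label, Tmigd1 was -0.22 with Vil1 UMIs kept. The cause was not tested. Of the other values for named RNAs under the alternatives, 612 for the label, 817 for the populations and 134 for the difference kept their direction and side of the threshold, and 188, 97 and 96 lost the call. With 3 libraries a label and 1119041 to 1599501 UMIs in each sum, the precision for RNAs of low level was limited. The 72 members without Trac or Trbc UMIs held only 18561 to 51947 UMIs per library.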
